A study of Mus musculus with 12 samples.

Results

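The genes described here are the protein-coding genes of mouse chromosomes 7, 13 and 17 whose symbol is Zfp followed by digits, that is, zinc finger protein genes. The rule that defines them uses name and position alone, from the RefSeq annotation of GRCm38, and no peaks. These genes were nevertheless chosen for description with earlier results of these data known. There were 163 of them among 21887 protein-coding genes. Of these, 128 had another Zfp gene within 100 kb, measured between gene edges, and are called clustered. The other 35 had none and are called isolated. Chromosome 7 held 73 clustered and 17 isolated genes, chromosome 13 held 23 and 9, and chromosome 17 held 32 and 9.

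The measurement was ChIP-seq, the sequencing of DNA pulled down with chromatin, with an antibody against crotonylated lysine (Pan-Kcr PTM BIO, #PTM-501), an acylation found on histones and other proteins. Dorsal hippocampus came from C57BL/6J mice in the Learning condition, which had been trained in a spatial object recognition task, and from C57BL/6J mice in the Homecage condition, which had not. Each condition had 1 antibody library, whose called peaks are referred to as the learning list and the homecage list. The labels of these libraries give neither sex nor age, and do not say whether several animals were pooled.

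There were 16243 learning and 332168 homecage peaks. The assembled chromosomes carried 16002 of the former and 331236 of the latter, 20.7 homecage peaks for each learning peak. Each list gives only the position and width of each peak, so the read depth is unknown, peak strength cannot be compared, and with 1 library per condition a difference between the lists has no replicate check and no p-value. A gene absent from a list had no peak called there, which does not show that crotonylation was absent. The labelled tissue could be checked only coarsely, since a peak is not a measure of expression. Of 6 genes typical of brain cells, 4 had a learning peak and 6 a homecage peak, and of 3 genes typical of liver, heart and pancreas, none had a learning peak and 2 had a homecage peak. The shares of all protein-coding genes were 26.9% and 81.7%. The brain genes include much longer ones (Rbfox3, 421838 bp) than the others (at most 26097 bp, Myh6), so these counts cannot decide the tissue.

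Most Zfp genes encode proteins with tandem C2H2 zinc fingers, in which each finger can contact a few bases of DNA. Many of them also carry a KRAB domain, which recruits the corepressor TRIM28 and, through it, the histone methyltransferase SETDB1. KRAB zinc finger genes arose largely by tandem duplication and lie in clusters, and many of their proteins bind transposable elements and silence them. The isolated genes of the same name are a more mixed group, including activators and RNA-binding proteins.

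Promoters show what kind of sequence lay under the peaks and what kind did not. The 5 below are from RefSeq (GRCm38.p6), each from 250 bases before to 50 bases after a gene start, 5′ to 3′ on the gene's strand, with CG pairs in capitals. Zfp942 and Zfp943 form a divergent pair whose promoters overlap on opposite strands, and 1 learning peak covered both. Zfp629 is isolated, and its promoter also lay under a learning peak. Zfp110 (clustered) and Zfp296 (isolated) had no peak in either list.
Zfp942, chr17:21962415-21962714, minus strand: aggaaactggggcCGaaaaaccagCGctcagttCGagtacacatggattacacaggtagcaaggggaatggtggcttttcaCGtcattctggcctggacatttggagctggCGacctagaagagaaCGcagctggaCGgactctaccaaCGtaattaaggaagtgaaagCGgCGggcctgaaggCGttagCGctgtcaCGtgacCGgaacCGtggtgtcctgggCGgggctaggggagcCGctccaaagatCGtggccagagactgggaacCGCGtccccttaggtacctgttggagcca
Zfp943, chr17:21962309-21962608, plus strand: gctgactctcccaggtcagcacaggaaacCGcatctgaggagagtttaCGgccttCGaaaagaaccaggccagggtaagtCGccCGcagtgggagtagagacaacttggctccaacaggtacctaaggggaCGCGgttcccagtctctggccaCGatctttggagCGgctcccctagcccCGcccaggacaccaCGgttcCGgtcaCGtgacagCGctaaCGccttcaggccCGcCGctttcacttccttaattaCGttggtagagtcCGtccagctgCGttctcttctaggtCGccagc
Zfp629, chr7:127615223-127615522, minus strand: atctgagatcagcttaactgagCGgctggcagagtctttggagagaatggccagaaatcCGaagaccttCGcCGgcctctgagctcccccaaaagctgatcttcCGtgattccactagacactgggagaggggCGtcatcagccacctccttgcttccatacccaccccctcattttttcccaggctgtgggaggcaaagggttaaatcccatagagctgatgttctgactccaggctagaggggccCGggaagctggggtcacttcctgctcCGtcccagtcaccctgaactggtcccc
Zfp110, chr7:12834511-12834810, plus strand: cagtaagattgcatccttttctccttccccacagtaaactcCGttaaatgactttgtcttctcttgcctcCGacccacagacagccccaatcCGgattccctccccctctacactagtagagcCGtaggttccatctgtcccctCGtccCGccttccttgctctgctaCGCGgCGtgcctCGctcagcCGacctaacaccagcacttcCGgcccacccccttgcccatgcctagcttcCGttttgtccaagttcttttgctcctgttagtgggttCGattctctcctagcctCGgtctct
Zfp296, chr7:19577037-19577336, plus strand: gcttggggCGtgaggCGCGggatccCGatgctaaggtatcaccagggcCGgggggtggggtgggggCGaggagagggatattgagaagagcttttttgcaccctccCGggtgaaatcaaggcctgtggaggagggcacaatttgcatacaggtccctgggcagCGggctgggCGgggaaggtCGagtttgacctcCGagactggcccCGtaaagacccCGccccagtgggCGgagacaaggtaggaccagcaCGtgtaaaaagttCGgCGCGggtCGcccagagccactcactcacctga
The observed number of CG pairs over the number expected from the bases was 0.825 for Zfp942, 0.792 for Zfp943 and 0.331 for Zfp629. It was 0.761 for Zfp110 and 0.661 for Zfp296. A promoter without a peak could thus hold more CG pairs than one with a peak.

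The learning list had a peak in or within 1 kb of 41 of the 163 Zfp genes (25.2%, 95% exact Clopper-Pearson interval 18.7 to 32.5%), beside 26.9% of all protein-coding genes. The homecage list had one at 150 (92.0%, 86.7 to 95.7%), beside 81.7%. These intervals cover counting error only and treat genes as independent, which neighbours in a cluster are not, so the true errors are larger. Longer genes offer more room for a peak. Among the 2136 protein-coding genes of 5 to 50 kb on the same chromosomes, 22.3% had a learning peak and 90.8% a homecage peak, so the Zfp genes were close to genes of like length in both lists.

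Peaks in both lists were present at 38 Zfp genes (23.3%, all protein-coding genes 26.4%), and in the homecage list alone at 112 (68.7%, all 55.4%). A learning peak without any homecage peak was seen at 3 (1.84%, all 0.539%), namely Zfp658, Zfp668 and Zfp689, which were all clustered genes of chromosome 7. No peak of either list was found at 10 (6.13%), beside 17.7% of all protein-coding genes and 8.66% of those of 5 to 50 kb on the same chromosomes. Of these, 9 were clustered (Zfp27, Zfp54, Zfp84, Zfp108, Zfp110, Zfp146, Zfp383, Zfp747 and Zfp748) and 1 was isolated (Zfp296). Zfp110 encodes an interactor of the p75 neurotrophin receptor, and Zfp296 is known from pluripotent cells.

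Most Zfp genes with a learning peak had a single one. There were 35 with 1 peak, 3 with 2, 1 with 3 and 2 with more. In the homecage list 21 genes had 1 peak, 34 had 2, 32 had 3 and 63 had more. At Zfp genes the learning peaks were 146 to 1344 bp wide with a median of 336 bp, against 306 bp over the whole learning list. The homecage peaks were 147 to 2500 bp wide with a median of 359 bp, against 351 bp over the whole homecage list. Of the 59 learning peaks at Zfp genes, 31 overlapped a homecage peak (52.5%, 39.1 to 65.7%), beside 48.6% of the 8632 learning peaks at all protein-coding genes. Another protein-coding gene lay within 1 kb of 5 of the 59, so those cannot be assigned to 1 gene.

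The question the choice of genes raises is whether Zfp genes in clusters carry fewer or more peaks than isolated ones. A learning peak was present at 29 of 128 clustered genes (22.7%, 15.7 to 30.9%) and at 12 of 35 isolated genes (34.3%, 19.1 to 52.2%). The difference was -11.6 percentage points, with a 95% Newcombe interval of -29.4 to 4.02, which includes 0. A homecage peak was present at 116 clustered genes (90.6%, 84.2 to 95.1%) and at 34 isolated genes (97.1%, 85.1 to 99.9%). That difference was -6.52 points, with an interval of -13.2 to 5.80. Neither share therefore differed beyond its counting error. When windows of 1 kb around the gene ends replaced the whole gene, the homecage difference widened to -21.4 points (-32.4 to -5.03).

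**Figure D1:**
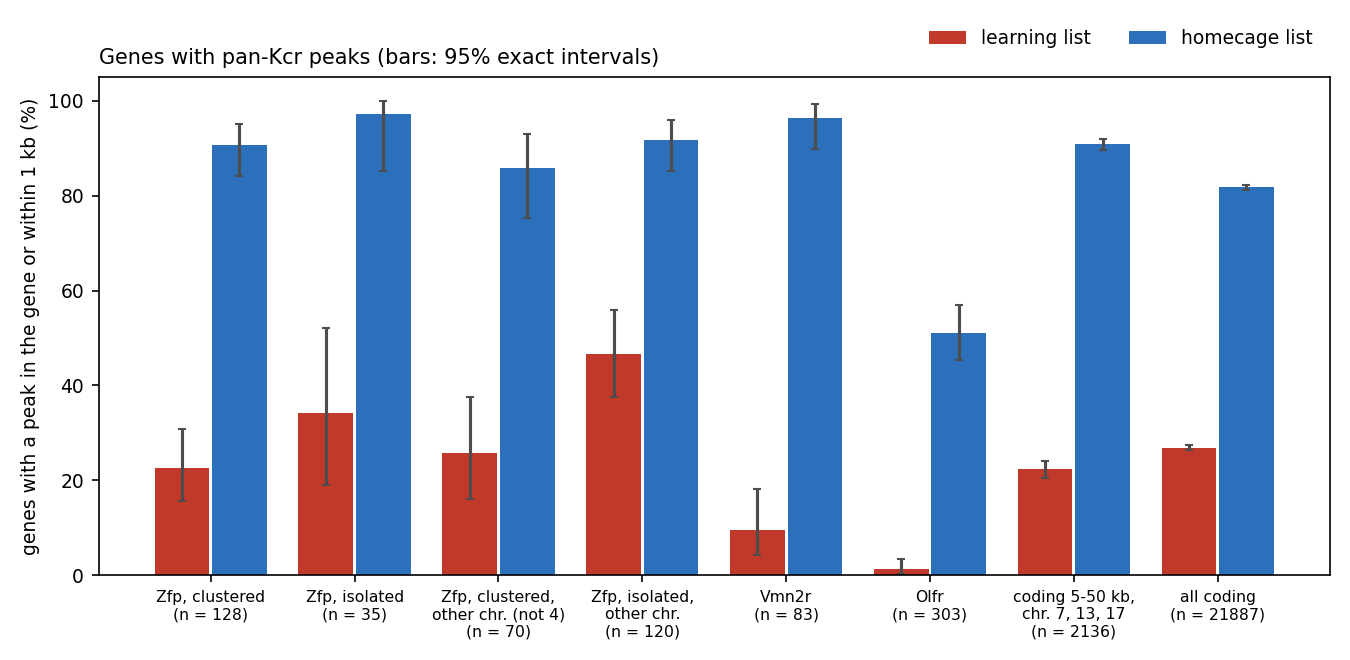
Percentage of genes with a peak in the gene or within 1 kb, in the learning list (red) and the homecage list (blue), by gene set, with 95% exact intervals as error bars. Clustered Zfp genes were at 22.7% and 90.6%, isolated ones at 34.3% and 97.1%, and the 303 Olfr genes lowest at 1.32% and 51.2%. The Olfr genes are short (median 954 bp), and the shares do not allow for length.

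The chromosomes did not show the learning difference alike. On chromosome 7 a learning peak was present at 17 of 73 clustered genes (23.3%) and 8 of 17 isolated genes (47.1%). On chromosome 17 the counts were 8 of 32 and 3 of 9 (33.3%). On chromosome 13 they were 4 of 23 (17.4%) and 1 of 9 (11.1%), the one chromosome where clustered genes had the higher share. Homecage peaks were present at 63 of 73 clustered and 16 of 17 isolated genes of chromosome 7. On chromosome 13 this held for 22 of 23 clustered genes and on chromosome 17 for 31 of 32, and on both for all 9 isolated genes.

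Isolated genes tended to be longer, with a median of 19917 bp against 15388.5 bp, so peaks were also counted per length, each peak once. Clustered genes and their 1 kb margins spanned 2557 kb and held 381 homecage peaks, or 1.49 per 10 kb (95% exact Poisson interval 1.34 to 1.65). Isolated genes spanned 1350 kb and held 254, or 1.88 per 10 kb (1.66 to 2.13). The ratio of clustered to isolated was 0.792 (95% exact conditional interval 0.674 to 0.932). All protein-coding genes held 1.36 homecage peaks per 10 kb, and those of 5 to 50 kb on the same chromosomes held 1.50. The isolated genes include much longer ones. With Zfp genes of 5 to 50 kb alone, the 119 clustered genes were at 1.46 (1.31 to 1.62) and the 26 isolated genes at 1.59 (1.29 to 1.94), and both intervals include 1.50. The ratio was then 0.917 (0.729 to 1.16), which includes 1.

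The learning list gave 30 peaks at clustered genes, or 0.117 per 10 kb (0.0792 to 0.167), and 29 at isolated genes, or 0.215 (0.144 to 0.309). The ratio was 0.546 (0.317 to 0.943). A single isolated gene, Zfp936, held 12 of those 29 peaks. Without it the isolated genes were at 0.134 learning and 1.72 homecage peaks per 10 kb (1.50 to 1.97 for homecage), and the ratios moved to 0.876 (0.468 to 1.69) and 0.864 (0.730 to 1.03), whose intervals include 1. The learning ratio also turned to 1.45 when a neighbour within 250 kb made a gene clustered, which places Zfp936 among the clustered genes, and to 1.06 without chromosome 7. With peaks of at least 500 bp alone it was 0.293. With genes of 5 to 50 kb alone it was 0.911 (0.407 to 2.31), so among genes of like length neither density differed beyond counting error.

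**Figure D2:**
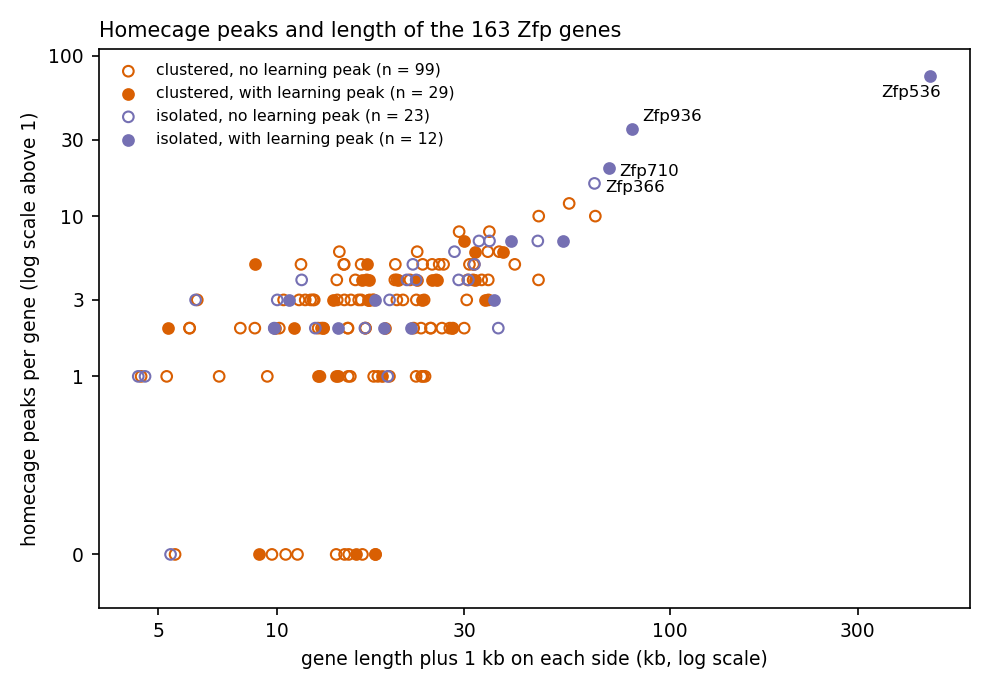
Number of homecage peaks of each of the 163 Zfp genes (vertical axis, logarithmic above 1) against gene length plus 1 kb on each side (horizontal axis, logarithmic), with filled symbols for genes that also had a learning peak. Zfp536 with 75 and Zfp936 with 35 homecage peaks stand at the upper right, and the points at 0 include the 10 genes without any peak and the 3 with a learning peak alone.

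Zfp936 is an isolated gene of chromosome 7 (43114166 to 43192109, 77944 bp) whose nearest Zfp neighbour, Zfp715, begins 104412 bp away. The gene and its 1 kb margins held 12 learning peaks, 229 to 1185 bp wide, and 35 homecage peaks, 147 to 2500 bp wide. Learning peaks covered 7.78% of this window and homecage peaks 36.4%, against 0.289% and 5.52% over all protein-coding genes. The dense stretch did not follow the gene's edges. The 50 kb bins over and after the gene held 5, 9 and 4 learning and 20, 22 and 13 homecage peaks. The last of these bins lies beyond Zfp936 and touches the next coding gene, EU599041, and the first also touches Gm17768. Whether peaks of these bins lie in those other genes was not counted. The neighbouring bins on either side held 0 or 1 learning and 3 to 13 homecage peaks. The start that RefSeq lists for Zfp936 lies 63424 bp inside its gene edge, so most of its peaks lie upstream of that start. Zinc finger genes that arose by duplication resemble each other, the handling of reads that map to several places is not given in the sources used here, and its part in this count was not tested.

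Zfp715 (43296522 to 43313300), the gene nearest to Zfp936, lay just outside the 100 kb limit with it. It had 1 learning peak of 465 bp just downstream of its start and 2 homecage peaks. Just inside the limit were Zfp72 and Zfp825 on chromosome 13, which are 87516 bp apart. Neither had a learning peak, and they had 1 and 3 homecage peaks. Genes on either side of the limit therefore had few peaks, apart from Zfp936.

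Most Zfp genes with a learning peak and a known strand had one at the gene start, though the many peaks of Zfp936 and Zfp536 lay mostly elsewhere. Starts were listed for 146 of the 163 genes (115 clustered, 31 isolated). A learning peak lay within 1 kb of a start at 33 of them (22.6%, 16.1 to 30.3%), beside 16.4% of 17492 protein-coding genes with a listed start. At the 3′ end the count was 3 (2.05%, all 1.84%). Of the 38 Zfp genes with a listed start and a learning peak, 86.8% had one at the start, beside 61.6% of the 4669 protein-coding genes with a learning peak. These 2 sets were not matched in length, and longer genes have more room for a peak away from the start. Homecage peaks lay within 1 kb of a start at 97 Zfp genes (66.4%, 58.2 to 74.0%, all 51.5%) and of the 3′ end at 45 (30.8%, all 29.7%). The interval of the homecage start share lies above the share of all genes, whereas that of the learning start share includes it, and at the 3′ ends both lists were near the background.

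Clustered genes had a learning peak at the start at 23 of 115 (20.0%, 13.1 to 28.5%) and isolated genes at 10 of 31 (32.3%, 16.7 to 51.4%). For homecage peaks the counts were 72 (62.6%, 53.1 to 71.5%) and 25 (80.6%, 62.5 to 92.5%). The intervals of the 2 classes overlap in each list. The nearest learning peak lay over the start itself at 7 of the 33 genes, downstream of it at 23 and upstream at 3. The downstream peaks began a median of 159 bp and at most 518 bp from the start. A homecage peak was also present at the start of 22 of the 33, beside 97 of all 146 Zfp genes with a listed start (66.4%). The share was thus close to that of Zfp genes in general.

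**Figure D3:**
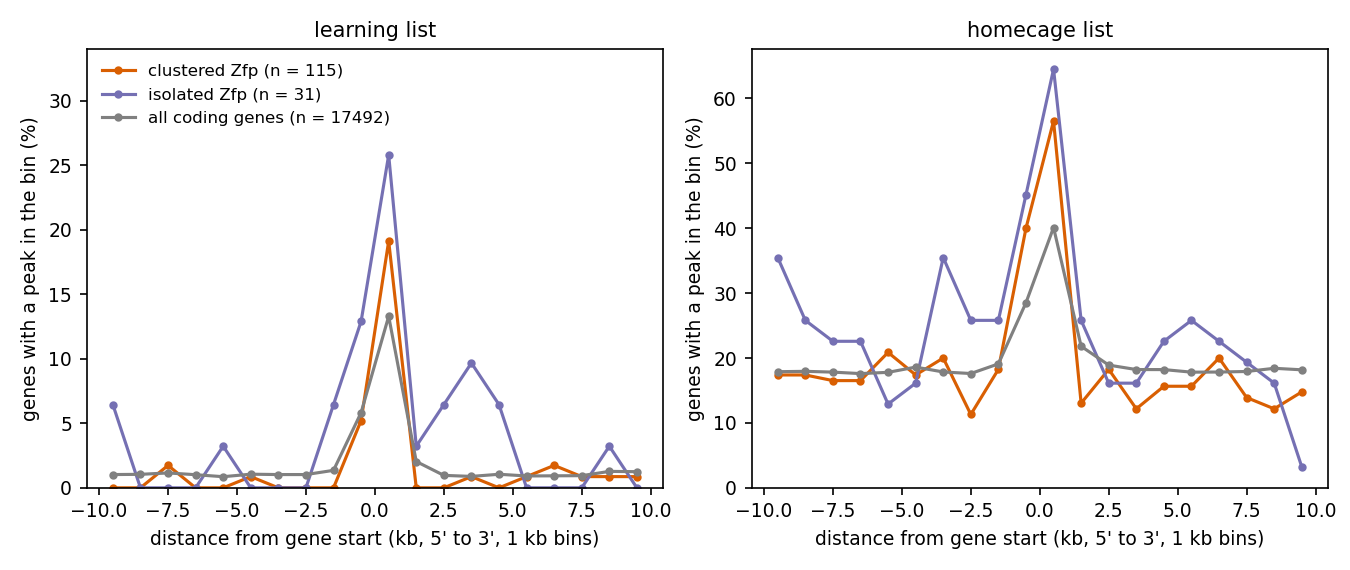
Percentage of genes with a peak in each 1 kb bin from 10 kb before to 10 kb after the outermost listed start (horizontal axis, distance in kb along the gene's strand), in the learning list (left) and the homecage list (right). In the first kb of the gene 19.1% of clustered and 25.8% of isolated Zfp genes had a learning peak, against 13.3% of all protein-coding genes, and the isolated curve rests on 31 genes.

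The profile by distance shows how narrow this rise was at clustered genes. In the first kb after the outermost start, 22 of 115 clustered genes (19.1%) and 8 of 31 isolated genes (25.8%) had a learning peak. In the kb before it the shares were 5.22% and 12.9%, and no clustered gene had one from 1 to 3 kb into the gene. The corresponding shares of all protein-coding genes were 13.3% after and 5.83% before the start. At isolated genes the rise was less sharply bounded. In the bins from 1 to 5 kb into the gene, 3.23 to 9.68% of them had a learning peak, beside 0.886 to 2.04% of all protein-coding genes. These isolated shares rest on 1 to 3 genes per bin. Homecage peaks were present in the first kb at 56.5% of clustered, 64.5% of isolated and 40.1% of all protein-coding genes. Over the lengths of the genes, 61.5% of 52 learning peaks inside Zfp genes had their centre in the first part when a gene was divided into 3 equal parts, against 38.6% of 511 homecage peaks. All protein-coding genes were close to both values, at 55.9% of learning and 35.7% of homecage peaks.

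The promoters themselves were scored for CG pairs as above. Among clustered genes the median ratio of observed to expected CG pairs was 0.714 for the 23 with a learning peak at the start and 0.538 for the 92 without. Among isolated genes it was 0.696 for 10 and 0.661 for 21. Over all protein-coding genes the medians were 0.808 and 0.485. For homecage peaks the medians were 0.620 with and 0.539 without a peak at clustered starts, and 0.721 and 0.425 at isolated starts, the last from 6 genes. The median ratio was higher with a peak in each of these sets, but at isolated genes the learning difference was small, and the median number of CG pairs there was 15.5 with a learning peak and 17 without.

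Short motifs, chosen after results of these data were known, were searched on both strands of the outermost promoter. The cAMP response element TGACGTCA was found in 6 of 146 Zfp promoters (4.11%), those of Zfp72, Zfp457, Zfp473, Zfp523, Zfp595 and Zfp953, and in 2.33% of all promoters of the same length. The ETS-type motif CCGGAAG was found in 33 (22.6%, all 11.9%) and the CCAAT box in 69 (47.3%, all 39.2%). None of the 3 motifs contains another. Of the 6 genes with the cAMP response element, only Zfp457 and Zfp595 had a learning peak at their start. Such a peak was present at 33 of all 146 Zfp genes with a listed start (22.6%), and 6 genes are too few to compare with that share. A match describes letters in the promoter and does not show that a factor binds there.

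The widest learning peak counted at a Zfp gene measured 1344 bp and lay almost wholly beyond the 1 kb margin of Zfp628, at chr7:4922994-4924337. It was also near Nat14 and Ssc5d, so its assignment to Zfp628 is weak. Zfp628 (4915181 to 4922003) had another learning peak of 156 bp inside it, the 2 covered 166 bp of its window in all, and it had 5 homecage peaks, the highest density of the homecage list among Zfp genes at 5.67 per 10 kb. Its own start carried a homecage peak of 452 bp and no learning peak.

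Zfp629 (isolated, chromosome 7, 127607028 to 127615785) had the widest learning peak lying over a start, at chr7:127614815-127615692 and 878 bp wide. The 3 homecage peaks of the gene measured 151, 150 and 208 bp, and the one of 150 bp overlapped it. Zfp942 and Zfp943 on chromosome 17 lie head to head with 55 bp between them. The learning peak on both starts, at chr17:21962164-21963039, was 876 bp wide, and a homecage peak of 650 bp overlapped it. Zfp942 had 6 homecage peaks in all and Zfp943 had 3, so a single shared promoter peak counted for both genes.

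Further wide learning peaks lay at or near starts. Zfp689 had 1 of 616 bp, 187 bp downstream of its start, and no homecage peak. Zfp592, an isolated gene, had 1 of 610 bp over its start, inside a homecage peak of 1043 bp. Zfp948 had 1 of 565 bp over its start without an overlapping homecage peak, and Zfp456 likewise had 1 of 518 bp. Zfp771 had 1 of 474 bp over its start, which a homecage peak of 545 bp overlapped, and 1 of 183 bp across its 3′ end. Zfp184, isolated on chromosome 13, differed from these genes, since its learning peak of 553 bp lay 3590 bp inside the gene.

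Zfp536, a repressor of neural differentiation, is the longest Zfp gene here at 456017 bp and is isolated. It held 5 learning peaks, of which 1 of 231 bp lay upstream at -544 bp from its start and the others 86752 to 427178 bp inside the gene. It held 75 homecage peaks, up to 1156 bp wide, or 1.64 per 10 kb. That density was below the 4.38 of Zfp936, so its count followed its length more closely. Zfp710, with 3 learning and 20 homecage peaks, and Zfp366, with 16 homecage peaks and no learning peak, were the other isolated genes with more than 7 homecage peaks. Zfp366 encodes a corepressor of nuclear receptors known from dendritic cells.

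The widest homecage peaks marked other genes. At clustered genes they measured 1556 bp (Zfp760), 1458 bp (Zfp787), 1394 bp (Zfp568) and 1394 bp (Zfp952). The peak of Zfp787 lay over its start and overlapped a learning peak of 415 bp. The other 3 genes had no learning peak. Zfp568, whose protein silences a placental transcript of Igf2, had 10 homecage peaks. At isolated genes the widest were 2500 bp (Zfp936), 1509 bp (Zfp523), 1265 bp (Zfp959) and 1264 bp (Zfp366). The peak of Zfp523 lay across its first gene edge and that of Zfp959 over its start, and neither gene had a learning peak.

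Of 8 Zfp genes with well known roles, 5 were in the homecage list alone, near the 68.7% of all 163. Zfp57, which maintains methylation at imprinted loci, had 4 homecage peaks of 182 to 665 bp and no learning peak, the narrowest of them also near Mog. Zfp369, whose protein like that of Zfp110 binds the p75 neurotrophin receptor, had 4 homecage peaks and Zfp110 had none. Zfp36, which encodes tristetraprolin and drives the decay of mRNAs with AU-rich elements, had 1 homecage peak of 147 bp, the smallest width at these genes. Zfp367 had 5 homecage peaks of up to 415 bp. Zfp143, a promoter-binding activator, had, like Zfp536 above, a peak in both lists, with a learning peak of 307 bp lying upstream at -400 bp from its start and 3 homecage peaks of up to 259 bp. Among other genes chosen after their values were seen, Zfp598, a ubiquitin ligase of collided ribosomes, had a learning peak of 196 bp and Zfp318 one of 458 bp.

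The 128 clustered genes fell into 25 clusters, of which 10 were pairs. No gene of 8 clusters had a learning peak, while in 17 clusters every gene had a homecage peak. From the first to the last gene of a cluster, homecage peaks reached at most 198 per Mb. Among the 11 clusters of 5 or more genes, which held 94 genes, the range was 119 to 188 per Mb for homecage and 3.54 to 28.9 per Mb for learning peaks. The learning values rest on 1 to 4 peaks per cluster, and their differences between clusters were not tested.

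The largest cluster runs from Zfp84 to Zfp146 on chromosome 7 and holds 15 genes. Learning peaks were present at 2 of them, Zfp14 and Zfp82, and homecage peaks at 11. Neither end gene of this cluster had a peak. The cluster held 7.48 learning and 130 homecage peaks per Mb. On chromosome 13 the 14 genes from Zfp712 to Zfp748 included 3 with a learning peak and 13 with a homecage peak, the exception being Zfp748, whose 14512 bp held none. On chromosome 17 the 13 genes from Zfp677 to Zfp943 included 3 and 12, and the divergent pair above makes up 2 of the 3.

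The remaining clusters of 5 or more genes gave similar counts for the homecage list. From Zfp180 to Zfp94 on chromosome 7, 2 of 10 genes had a learning peak and 9 a homecage peak, and the 2 were the end genes, with learning peaks of 322 and 256 bp. From Zfp871 to Zfp563 on chromosome 17, 3 of 8 had a learning peak and all 8 a homecage peak, and the end genes carried learning peaks of 370 and 288 bp. From Zfp553 to Zfp689 on chromosome 7 the counts were 2 and 5 of 7. From Zfp787 to Zfp28 they were 1 and 6 of 6, with Zfp787 the gene with the learning peak. From Zfp329 to Zfp446 they were 1 and 4 of 5, and Zfp329 carried a learning peak of 440 bp. The 5 genes from Zfp60 to Zfp850 and the 5 from Zfp738 to Zfp273 each included 1 with a learning peak and 5 with a homecage peak. In the cluster from Zfp628 to Zfp580, 3 of 6 genes had a learning peak and 6 a homecage peak. This cluster had the highest density of both lists among the large ones, 28.9 and 188 per Mb.

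**Figure D4:**
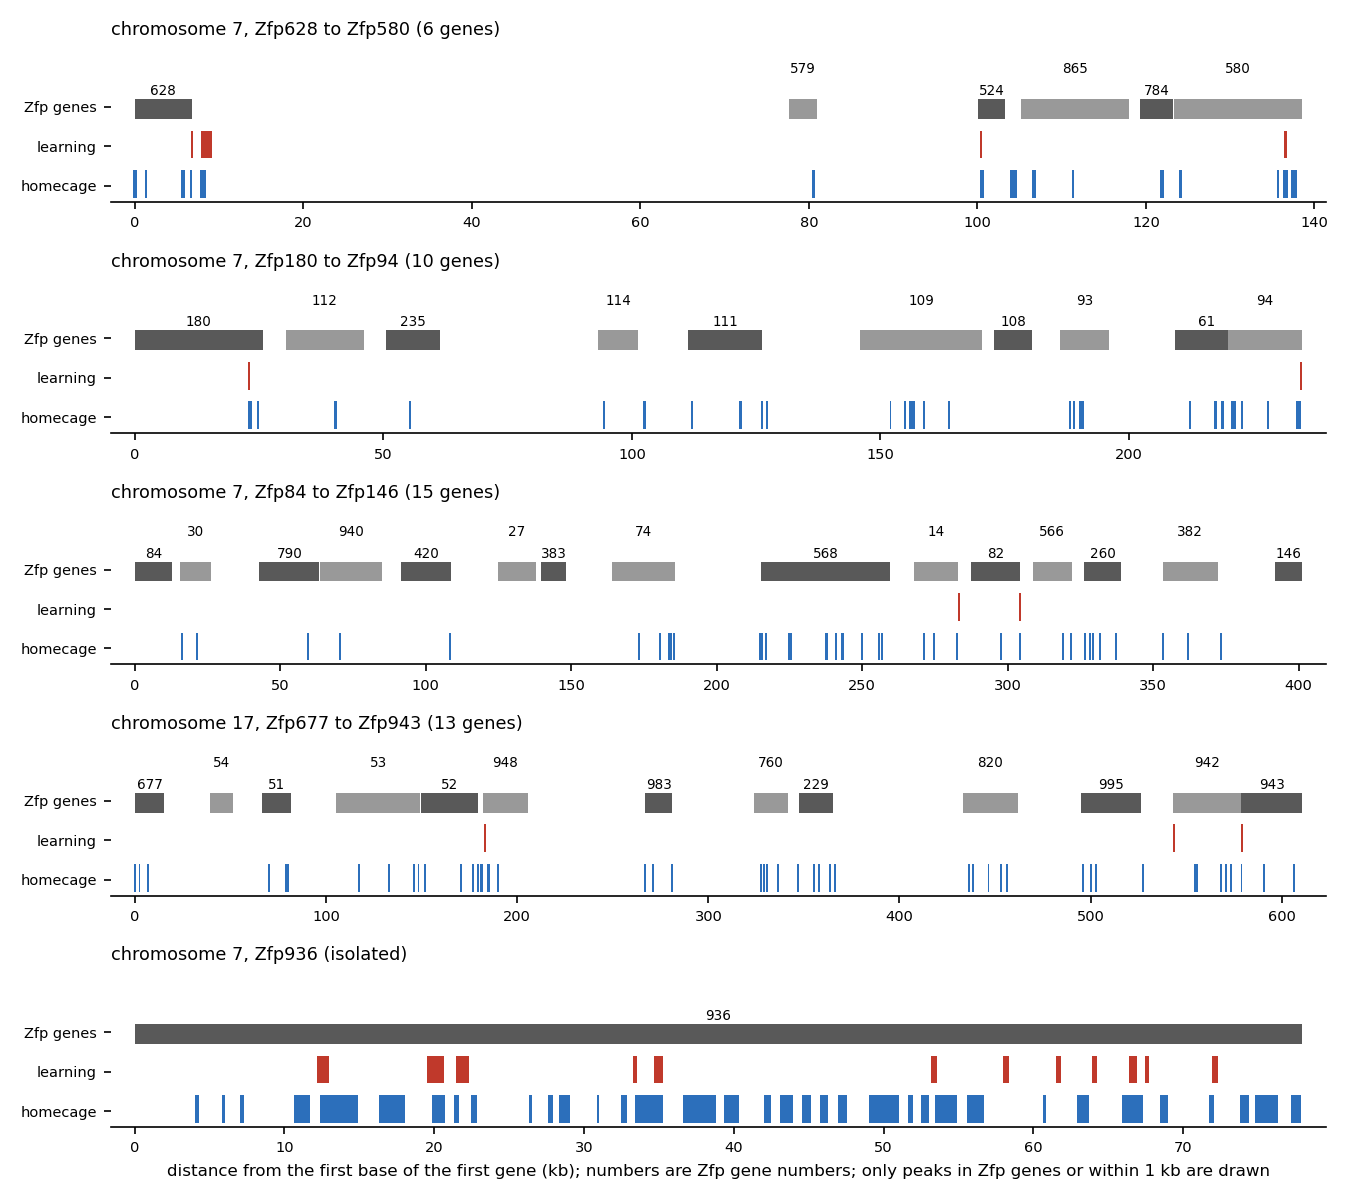
Zfp genes (grey bars, shaded alternately and marked with their numbers), learning peaks (red) and homecage peaks (blue) in 4 clusters and at the isolated gene Zfp936, against the distance in kb from the first base of the first gene, with only peaks in a Zfp gene or within 1 kb of one drawn. Of these, the cluster of 15 genes has learning peaks at 2 genes, and Zfp936 alone has 12 learning and 35 homecage peaks.

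Within clusters the learning peaks were denser inside the Zfp genes than between them, counting a peak across a gene edge in both. The counts inside and between genes therefore share some peaks, and the intervals of their ratios are only approximate. The stretches between Zfp genes can hold other protein-coding genes. Inside genes there were 28 learning peaks, or 0.121 per 10 kb, and between them 12, or 0.0515, a ratio of 2.34 (95% conditional interval 1.15 to 5.06). Homecage peaks were at 1.51 inside and 1.39 between genes per 10 kb, a ratio of 1.09 (0.935 to 1.27) that includes 1. They covered 5.87% of the sequence inside and 5.34% between genes, whereas learning peaks covered 0.399% and 0.194%. Neither ratio was computed for other genes, so neither is shown to be particular to Zfp clusters.

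Receptor genes on the same chromosomes also lie in tandem clusters, and a smaller share of them had a learning peak. A learning peak was present at 9.64% of 83 type 2 vomeronasal receptor genes (Vmn2r), against 22.7% of clustered Zfp genes, with a 95% Newcombe interval of the difference of 2.59 to 22.3 percentage points. A homecage peak was present at 96.4% of the Vmn2r genes, and that difference (-5.76 points for clustered Zfp minus Vmn2r, -12.5 to 1.82) includes 0. Per 10 kb, Vmn2r genes held 0.0650 learning peaks (0.0364 to 0.107) and clustered Zfp genes 0.117 (0.0792 to 0.167), and these intervals overlap. All protein-coding genes of the same chromosomes were at 0.0797. Of 303 olfactory receptor genes (Olfr), 1.32% had a learning and 51.2% a homecage peak. They are short, with a median length of 954 bp, so these shares are not on equal length. Per 10 kb, Olfr genes held 1.80 homecage peaks (1.56 to 2.05) and clustered Zfp genes 1.49 (1.34 to 1.65), the reverse order. Learning peaks were at 0.0337 (0.00919 to 0.0863) and 0.117 (0.0792 to 0.167), the former from 4 peaks. The intervals overlap in each list. On other chromosomes apart from 4, 70 clustered Zfp genes were at 25.7% in the learning and 85.7% in the homecage list. The differences from the clustered genes here were -3.06 points (-16.1 to 8.81) and 4.91 points (-4.02 to 15.7), both including 0. These intervals hold only without chromosome 4, whose 14 clustered Zfp genes had a learning peak at 92.9% and are described at the end. With chromosome 4 kept, the 84 clustered Zfp genes of other chromosomes were at 36.9% and 88.1%, and no interval of that difference was computed. The 120 isolated Zfp genes of other chromosomes, from which chromosome 4 was not left out, were at 46.7% and 91.7%. The intervals of their differences from the isolated genes here include 0 (-28.5 to 6.32 and -6.79 to 12.2 points).

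A list of 23 genes for corepressor and histone methylation partners of KRAB zinc finger proteins was also counted. Of these, 22 were matched, with a learning peak at 13 and a homecage peak at 21. Trim28, which encodes the corepressor itself, lies on chromosome 7 and had a learning peak of 146 bp and a homecage peak of 384 bp. Setdb1 had no learning peak and 3 homecage peaks of up to 862 bp. Chd3 and Chd4, remodelling subunits of the NuRD complex, had learning peaks of 946 and 852 bp. Atrx, on chromosome X, had no peak. These counts describe a short list, with 26.9% and 81.7% of all protein-coding genes as the background in the 2 peak lists. The genes were not matched in length to that background, whose median is 17169 bp. Ehmt1 among them is 128875 bp long, and longer genes have more room for a peak.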

How the data were processed

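Pan-Kcr ChIP-seq peak lists of 2 of the 12 libraries in the series were analysed, assigned to conditions by their labels. The nuclei libraries and the 2 inputs were not analysed here. The values used are genomic start and end positions, deposited by the authors with a peak name and no score, p-value or read count. The names of the deposited peaks give broad calling at p 0.01. Per the submitters' processing notes the tools were Trimmomatic, BWA and MACS2 and the build mm10, and their settings and versions are not given in the sources used here.

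Positions were matched to RefSeq genes of GRCm38.p6 in Python 3.11.15 (scipy 1.17.1, pandas 2.3.3, numpy 2.4.6), and plots were drawn in matplotlib 3.10.9. A gene had a peak if at least 1 bp of it lay in the gene or within 1 kb of either end. Strand and starts came from RefSeq promoter entries, available for 146 of the 163 Zfp genes and 17492 protein-coding genes. At 25 Zfp genes the outermost listed start lay over 1 kb inside the gene edge. Densities counted each peak once over merged windows. Shares have Clopper-Pearson intervals, differences of shares Newcombe intervals and ratios of densities exact conditional intervals, all at 95%. The intervals for densities inside against between the genes of clusters are only approximate, because peaks across a gene edge were counted in both. Functions were tested on simulated data.

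The genes, lists and tests were chosen with earlier results of these data known. Genes were named by rule: the 12 with the widest learning peaks, the 4 clustered and 4 isolated with the widest homecage peaks, the 3 longest of each class without a peak, the ends of clusters of 5 or more, 8 with known roles, and 2 on each side of the 100 kb limit. Protein comparisons (finger counts, KRAB stretch, identity) were not made, because no protein sequences were used here. Alternatives varied the window, the neighbour distance, the overlap, the peaks and the genes used.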

Additional observations from a re-analysis of the deposited data

How the results depend on the processing

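The 4 comparisons of clustered with isolated Zfp genes were recomputed under 70 alternative values in all, and 67 of them were lower in clustered genes. The alternatives reuse largely the same genes and peaks, so this tally does not count independent results. For both shares, counting peaks by their centre or merging peaks closer than 1 kb returned the reported differences unchanged. The learning share was lower in all 17 (-18.5 to -0.404 points) and the homecage share in 17 of 18 (-21.4 to 0.670 points), while the homecage ratio was below 1 in all 18 (0.620 to 0.928) and the learning ratio in 15 of 17 (0.293 to 1.45). The learning ratio, 0.546 as reported, turned to 1.45 with neighbours within 250 kb, which by construction moves Zfp936 to the clustered genes, and to 1.06 without chromosome 7, which removes Zfp936. It moved to 0.293 when narrower peaks than 500 bp were dropped. The homecage share moved to -21.4 points with gene ends alone, and the homecage ratio to 0.620 with as many of the widest homecage peaks as the learning list holds, and the cause of these moves was not tested. The interval lay wholly below no difference in 1 alternative for each share, 8 for the learning ratio and 10 for the homecage ratio. Leaving out Zfp936, Zfp536 or both was added after the data were seen. Wider zinc finger names gave the same sets of genes, and the alternative by protein identity was not run. No paired analysis was possible because only 1 library per condition had peaks. Unknown read depth limits every statement that a gene has no peak.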

Other observations

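Clustered Zfp genes of chromosome 4 stood apart from those described above. Of 14, 13 had a learning peak (92.9%, all protein-coding genes 26.9%), at 1.67 learning peaks per 10 kb, and homecage peaks covered 27.9% of their windows. Zfp978 (chromosome 4, 147124882 to 147392027) had 67 learning and 145 homecage peaks, and Zfp993 had 51 and 135. Zfp991, with 14 and 34, lies wholly inside Zfp978, so its peaks were counted for both genes. How reads that map to several places were handled is not given, and its part in these counts was not tested. Zfp936 on chromosome 7, with 12 learning and 35 homecage peaks, was the one Zfp gene of chromosomes 7, 13 and 17 with more than 5 learning peaks.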
